A study of Mus musculus with 12 samples.

Results

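The pericyte marker genes Rgs5, Mcam, Pdgfrb, Cspg4, Kcnj8, Abcc9 and Notch3 were followed in whole mouse hearts. They were taken by gene name from the deposited tables, and all 7 were found in each of the 4 tables, among 16246 genes listed in at least 1 of them. PolyA RNA had been sequenced from hearts of male C57Bl/6J mice, 12 weeks old, with 12 libraries in 4 groups of 3. The groups were BCAA-free diet with transverse aortic constriction (TAC), BCAA-free diet with sham surgery, BCAA-control diet with TAC and BCAA-control diet with sham surgery. TAC narrows the aortic arch, so that the left ventricle pumps against a higher pressure. The BCAA-free diet held no leucine, isoleucine or valine, the branched-chain amino acids, and the control diet held all essential amino acids. Either diet was given from 4 days before surgery until the hearts were taken 2 weeks after it, so the sham mice had the same feeding and an operation without the constriction. The labels do not say whether a library came from 1 heart or a pool, so the spread behind each p-value is that between libraries and may be technical.

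Pericytes are the mural cells that sit on capillaries, embedded in the basement membrane they share with the endothelium. Endothelial PDGF-B, acting through the receptor encoded by Pdgfrb, recruits them and keeps them on the vessel. In the heart they are abundant around the dense capillary bed between cardiomyocytes and take part in setting capillary flow. None of the markers is exclusive to them. Smooth muscle of arterioles also carries Rgs5, Mcam and Notch3, endothelium carries Mcam, fibroblasts can carry Pdgfrb, and cardiomyocytes carry a splice form of Abcc9. In RNA of a whole heart, fewer cells of a type and less RNA per cell cannot be told apart.

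The markers have different roles. Rgs5 (ENSMUSG00000026678, GRCm38 chromosome 1, 169655501 to 169695813, plus strand) encodes a regulator that shortens signalling by G protein alpha subunits. Pdgfrb (ENSMUSG00000024620) encodes the PDGF-B receptor, and Cspg4 (ENSMUSG00000032911, chromosome 9, 56865033 to 56899870, plus strand) encodes the NG2 proteoglycan of the mural cell surface. Mcam (ENSMUSG00000032135, chromosome 9, 44134469 to 44142727, plus strand) encodes the adhesion molecule CD146. Notch3 (ENSMUSG00000038146, chromosome 17, 32120820 to 32166852, minus strand) encodes the Notch receptor of mural cells. Kcnj8 (ENSMUSG00000030247, chromosome 6, 142564837 to 142571614) and Abcc9 (ENSMUSG00000030249, chromosome 6, 142587862 to 142702315) encode the pore Kir6.1 and the regulatory subunit SUR2 of the vascular ATP-sensitive potassium channel. These channel genes lie next to each other on the minus strand, 16247 bases apart with 0 annotated genes between them. An annotated antisense gene shares 17 exon bases with Mcam, 158 with Abcc9 and 488 with Notch3, and whether the counting used strand is not given in the sources used here.

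The markers differ in GC content, along which the BCAA-free TAC libraries differed from the others. The GC content of the longest transcript was 41.1% for Rgs5 and 46.2% for Abcc9. It was 53.3% for Kcnj8, 53.7% for Mcam, 54.9% for Pdgfrb, 59.2% for Cspg4 and 59.6% for Notch3. RefSeq promoters on GRCm38.p6 were matched for 6 of the 7 markers, all but Pdgfrb. In the 250 bases before the start site GC content was 53.6% for Rgs5, 49.2% for Kcnj8, 60.4% for Cspg4, 66.8% for Abcc9, 68.8% for Notch3 and 73.6% for Mcam. The windows of the lowest- and highest-GC transcripts are shown in 5′ to 3′ order, with matches to GGGCGG or its reverse complement CCGCCC, the core of SP and KLF factor motifs, in capitals. The Rgs5 window is chr1:169655251-169655500 on the plus strand and the Notch3 window is chr17:32166891-32167140 on the minus strand.
Rgs5: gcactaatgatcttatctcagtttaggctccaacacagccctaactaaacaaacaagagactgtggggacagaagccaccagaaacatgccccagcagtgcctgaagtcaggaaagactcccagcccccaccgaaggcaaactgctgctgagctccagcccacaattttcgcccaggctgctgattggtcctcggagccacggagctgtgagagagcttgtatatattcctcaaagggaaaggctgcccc
Notch3: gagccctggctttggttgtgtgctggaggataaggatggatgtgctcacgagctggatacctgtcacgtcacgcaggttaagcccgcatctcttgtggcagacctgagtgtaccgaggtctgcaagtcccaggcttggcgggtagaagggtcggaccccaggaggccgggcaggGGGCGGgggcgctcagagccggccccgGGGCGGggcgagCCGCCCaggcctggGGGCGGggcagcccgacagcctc
The Rgs5 window held 0 matches and the Notch3 window held 4, the nearest ending 18 bases before the start site. Of the other windows, Mcam held 5 such matches, Cspg4 held 2, Abcc9 held 1 and Kcnj8 held 0. Among 32817 RefSeq promoter windows of this length, 32.7% held at least 1. The RBPJ core TGGGAA was matched only in Abcc9 among the 6 (21.6% of all windows), where it overlapped a match to the TEAD core GGAATG (12.6% of all windows). The CArG box, the serum response factor motif, was matched in 0 of the 6 windows and in 1.47% of all. Both strands were searched, and these are letter matches in a window, not sites of binding. Of the Mcam, Cspg4 and Abcc9 windows, 189, 71 and 41 bases lie inside the gene as GENCODE M21 annotates it.

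Depth was 13847107 to 52065900 reads per library over the 4 tables, recovered from the deposited values, and the smallest count behind any marker was 328 reads for Cspg4. In CPM, reads scaled to library size, cardiomyocyte markers summed to 70890 to 108395, endothelial markers to 2265 to 2706 and the 7 pericyte markers to 875 to 1266, and the labelled tissue carried its defining markers. With TAC on the control diet, 5 of 6 pressure overload markers rose at an adjusted p under 0.05 by limma (4.04% of all genes passed). In mice without BCAA 2 of 6 did so (6.23% of all genes passed). All 6 had a positive difference on either diet, at medians of 2.21 and 0.84, and DESeq2 called 6 and 5 of them. Some libraries stood apart from their groups. Replicate 2 of control diet TAC differed from replicates 1 and 3 by a mean chi-square per gene of 61.0 and 68.0, against 10.8 between those replicates. Replicate 3 of control diet sham differed from its partners by 47.7 and 49.2, against 11.8. Replicate 3 of BCAA-free sham differed from its partners by 38.1 and 16.1, against 4.74. The Spearman correlation of a library's expression deviations with GC content across 13159 genes was 0.229, 0.461 and 0.446 in the 3 BCAA-free TAC libraries and -0.254 to 0.035 in the other 9.

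On a common scale of CPM, recovered reads scaled to the library total with TMM, the markers differed widely in abundance. Per kilobase of exon, Rgs5 averaged 122 CPM over the 12 libraries, at the 98.0th percentile of all genes compared, and Abcc9 averaged 35.9. Mcam averaged 18.1 per kilobase, Kcnj8 17.7, Pdgfrb 15.5, Notch3 9.46 and Cspg4 2.42. Rgs5 made up 47.9% of the summed CPM of the 7 markers and Abcc9 26.2%, so a summed marker level is mainly a measure of these. The channel genes were far from equal, with Abcc9 above Kcnj8 in every library. Cardiomyocytes also carry Abcc9, and Kcnj11, another pore gene, was at 140 to 257 CPM against 38.8 to 51.8 for Kcnj8. The levels in whole hearts therefore do not compare the subunits of the channel within pericytes. The summed level was 994 to 1132 CPM in BCAA-free TAC, 1176 to 1260 in BCAA-free sham, 1213 to 1266 in control diet TAC and 875 to 1181 in control diet sham.

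The order of the 4 groups differed from marker to marker, on the same CPM scale. Rgs5 averaged 500 ± 37 in BCAA-free TAC, 614 ± 28 in BCAA-free sham, 622 ± 34 in control diet TAC and 478 ± 67 in control diet sham (SD, n = 3 each). Control diet TAC and BCAA-free sham overlapped each other and lay above the other pair of groups, which also overlapped. Mcam averaged 51.9 ± 1.3 in BCAA-free TAC, 48.3 ± 1.0 in BCAA-free sham, 89.3 ± 15.2 in control diet TAC and 53.4 ± 3.3 in control diet sham, so control diet TAC stood alone. Pdgfrb averaged 90.5 ± 9.1 in BCAA-free TAC, 75.9 ± 8.8 in BCAA-free sham, 106 ± 15 in control diet TAC and 67.7 ± 14.5 in control diet sham, each overlapping its neighbour in order of level. Cspg4 had the same order of groups, at 33.5 ± 5.2 in BCAA-free TAC, 24.0 ± 3.5 in BCAA-free sham, 36.9 ± 8.8 in control diet TAC and 21.2 ± 5.6 in control diet sham. Among its neighbours in that order, only BCAA-free TAC and BCAA-free sham did not overlap. Both TAC groups were thus the highest for the PDGF receptor and for NG2. Kcnj8 was flattest, with its highest mean, 49.2 ± 2.4, in BCAA-free TAC, which overlapped control diet TAC, and its lowest, 42.4 ± 1.2, in BCAA-free sham. Abcc9 had both TAC groups lowest, at 271 ± 37 in BCAA-free TAC and 251 ± 63 in control diet TAC, against 350 ± 19 in BCAA-free sham and 332 ± 67 in control diet sham. Notch3 averaged 84.0 ± 9.9 in BCAA-free TAC, 83.4 ± 10.1 in control diet TAC, 76.3 ± 4.5 in BCAA-free sham and 62.4 ± 12.7 in control diet sham, each overlapping its neighbour.

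**Figure D1:**
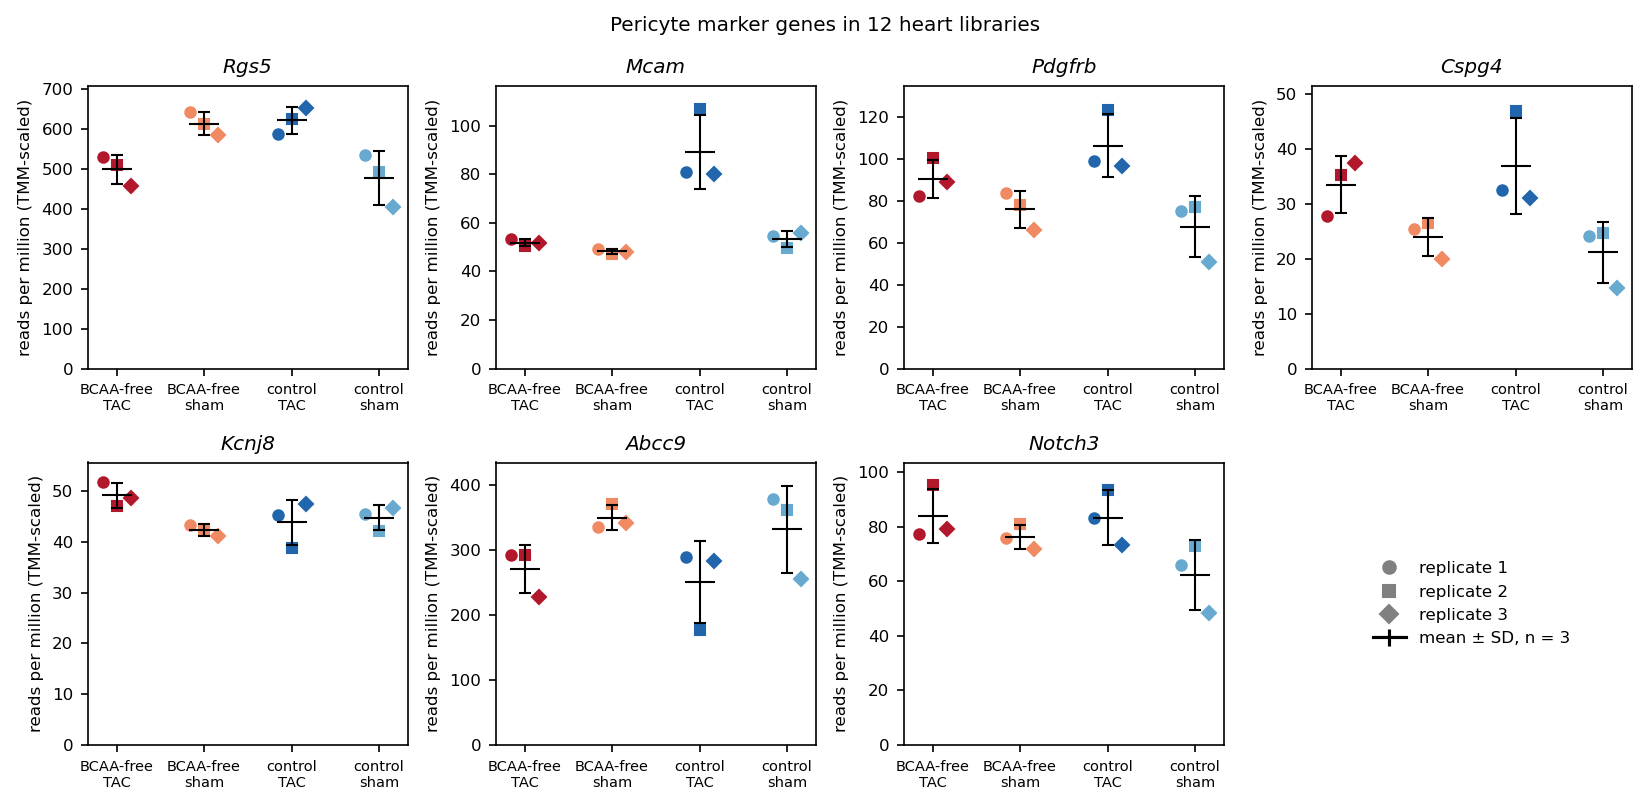
CPM after TMM scaling (y axis, reads scaled to library size, from 0) of each pericyte marker in the 4 groups (x axis), with 1 symbol per library and bars for the mean ± SD of 3. Mcam is high only in the 3 control diet TAC libraries, at 80.4 to 107, and Rgs5 is high in control diet TAC and BCAA-free sham.

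The first question was how pressure overload altered the markers when the amino acid supply was full, and control diet TAC was set against control diet sham. Values here are the authors' normalized read counts within the table of the comparison, differences are on the log2 scale of the value plus 1 with their SE, and adjusted p-values are by limma with Benjamini-Hochberg adjustment over all genes tested, called under 0.05. Mcam rose, and it was the only marker called (1 of 7), where 2.95% of all 15397 genes rose and 4.04% were called. In 5 of the 7 markers, Rgs5, Mcam, Pdgfrb, Cspg4 and Notch3, all TAC libraries lay above all sham libraries, where 17.8% of all genes did so. The median difference of the 7 was 0.43, against -0.0047 over all genes. Kcnj8 and Abcc9, the channel genes, overlapped between the groups.

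Mcam had 2405, 3193 and 2408 normalized counts in control diet TAC, against 1631, 1461 and 1712 in control diet sham. Every TAC library was higher, and replicate 2 was the highest of all. The difference was 0.73 ± 0.13 (adjusted p = 0.0397), or 1.65-fold. Without TAC replicate 2 it was 0.59 ± 0.11 (adjusted p = 0.0521), and the call was also lost without TAC replicate 3 or any of the sham replicates, with adjusted p from 0.0568 to 0.114 and differences from 0.66 to 0.79.

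Pdgfrb, which lies on chromosome 18 from 61045150 to 61085061 on the plus strand, had 2943, 3689 and 2890 normalized counts in TAC, against 2242, 2263 and 1563 in sham. The groups stood clear of each other, with the highest value in TAC replicate 2 and the lowest in sham replicate 3, the libraries that stood apart overall. The difference was 0.66 ± 0.16, with an adjusted p of 0.0557 that missed the threshold. Cspg4 had 968, 1403 and 932 in TAC, against 721, 725 and 451 in sham, and the same libraries held its extremes. Its difference of 0.81 ± 0.22 was the largest of the 7 and also missed the threshold (adjusted p = 0.0616). With a spread estimated over all 12 libraries both were called, at adjusted p = 0.0102 for Pdgfrb and 0.0193 for Cspg4 by limma.

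Rgs5 had 17462, 18692 and 19581 normalized counts in TAC, against 15948, 14532 and 12412 in sham. All TAC libraries were higher, but the sham libraries were widely spread, and the difference of 0.38 ± 0.13 was not called (adjusted p = 0.100). Notch3 had 2479, 2798 and 2198 in TAC, against 1960, 2153 and 1483 in sham, a difference of 0.43 ± 0.15 that was not called either (adjusted p = 0.114). The lowest TAC value, 2198, was only just above the highest sham value, 2153, and without sham replicate 3 the difference was 0.27. Over all 12 libraries limma called both, at adjusted p = 0.0235 for Rgs5 and 0.0422 for Notch3. Abcc9 had 8635, 5311 and 8505 in TAC, against 11289, 10662 and 7826 in sham (-0.42 ± 0.21, adjusted p = 0.227), with TAC replicate 2 far below the other TAC libraries and a difference of -0.19 without it. Kcnj8 had 1347, 1161 and 1419 in TAC, against 1353, 1241 and 1435 in sham (-0.04 ± 0.11, adjusted p = 0.844), and its groups were interleaved. In the authors' deposited table, Rgs5, Mcam, Pdgfrb and Cspg4 had an adjusted p under 0.05 in this comparison.

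Other cell types moved in the same comparison, where 2.95% of all genes rose and 4.04% were called. Of 14 fibroblast markers 7 rose and 0 fell, with a summed level of 3381 to 6022 CPM in control diet TAC and 2411 to 2638 in control diet sham. Of 15 smooth muscle contractile genes 5 rose and 1 fell, with sums of 1699 to 1948 and 1655 to 1734. That list includes the calsequestrin gene Casq2, which cardiomyocytes carry, at 656 to 1065 CPM over the 12 libraries. The sums and counts of that list, here and below, are therefore not of smooth muscle alone. Of 17 endothelial markers 1 rose, with sums of 2495 to 2706 and 2265 to 2574, and of 12 cardiomyocyte markers 1 fell, with sums of 70890 to 86999 and 97245 to 100661. DESeq2 called 5 of those 12, and 1 of the 12 had a positive difference, at a median of -0.41. No marker of these 4 lists was at 0 in any library. Their part in the marker changes was not tested.

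On the BCAA-free diet the same question gave a different set. Rgs5 and Abcc9 fell with TAC, and these were the markers called (2 of 7), where 2.89% of all 15670 genes fell and 6.23% were called. All TAC libraries lay below all sham libraries for these 2 markers, where 15% of all genes did so, and above all sham libraries for Mcam, Cspg4 and Kcnj8, where 14.6% of all genes did so. Over the 7 the median difference was 0.13, against 0.0014 over all genes.

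Rgs5 had 18641, 17964 and 16056 normalized counts in BCAA-free TAC, against 22658, 21572 and 20619 in BCAA-free sham. Every TAC library lay under the lowest sham library. The difference was -0.30 ± 0.08 (adjusted p = 0.0394), or 0.811-fold. Abcc9 had 10314, 10304 and 8001 in TAC, against 11853, 13087 and 12020 in sham, with TAC replicate 3 the lowest. Its difference was -0.38 ± 0.10 (adjusted p = 0.0453), or 0.770-fold. These are the 2 transcripts of lowest GC content among the markers, and correlations with GC content were highest in the 3 BCAA-free TAC libraries. As that trend goes with the group, a technical trend and a change in expression cannot be told apart. Its part in these differences was not tested. After the dependence of each library on GC and length had been removed, Rgs5 was at -0.13 ± 0.07 (adjusted p = 0.404) and Abcc9 at -0.19 ± 0.08 (adjusted p = 0.296), and neither was called. With limma over 12 libraries they were not called either, at adjusted p = 0.184 and 0.315. Without BCAA-free sham replicate 1 or 2, or TAC replicate 2 or 3, both calls were lost, with adjusted p from 0.0648 to 0.178 for Rgs5 and 0.0600 to 0.161 for Abcc9; the differences then ran from -0.32 to -0.24 and from -0.44 to -0.26.

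Cspg4 had 975, 1243 and 1314 normalized counts in BCAA-free TAC, against 897, 932 and 704 in BCAA-free sham. Its TAC libraries were all higher, with replicate 1 close to the sham range, and the difference of 0.48 ± 0.13 missed the threshold (adjusted p = 0.0599). Without BCAA-free TAC replicate 1 it was 0.61 ± 0.12 and called (adjusted p = 0.0249). Pdgfrb had 2890, 3528 and 3117 in TAC, against 2943, 2744 and 2329 in sham, and the ranges met in TAC replicate 1 and sham replicate 1 (0.25 ± 0.10, adjusted p = 0.145). Pdgfrb and Cspg4 thus had positive differences on both diets, and limma called neither within a table. DESeq2 on the recovered reads called Cspg4 on both (adjusted p = 0.00754 on the BCAA-free diet and 0.00767 on the control diet), and Pdgfrb on the control diet (adjusted p = 0.0061). Kcnj8 had 1824, 1656 and 1704 in TAC, against 1530, 1500 and 1446 in sham (0.21 ± 0.07, adjusted p = 0.101). Mcam had 1876, 1785 and 1812 in TAC, against 1742, 1666 and 1695 in sham, tight groups that stood apart by a small step (0.10 ± 0.07, adjusted p = 0.402). With the GC and length trends removed the Mcam difference was -0.01. Notch3 had 2729, 3358 and 2773 in TAC, against 2682, 2851 and 2532 in sham (0.13 ± 0.09, adjusted p = 0.400), and its groups overlapped. In the authors' deposited table Rgs5, Cspg4 and Abcc9 had an adjusted p under 0.05. Beside these, 2 of 12 cardiomyocyte markers rose, with sums of 103386 to 108395 CPM in BCAA-free TAC and 94484 to 102536 in BCAA-free sham. DESeq2 called 6 of those 12, and 9 of the 12 had a positive difference, at a median of 0.16. In this comparison limma called 6.23% of all genes. Of 14 fibroblast markers 1 rose and 1 fell, with sums of 2232 to 2649 and 2133 to 2247. Of 17 endothelial markers and of 15 smooth muscle contractile genes 1 each fell. Their part in the Rgs5 and Abcc9 differences was not tested.

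**Figure D2:**
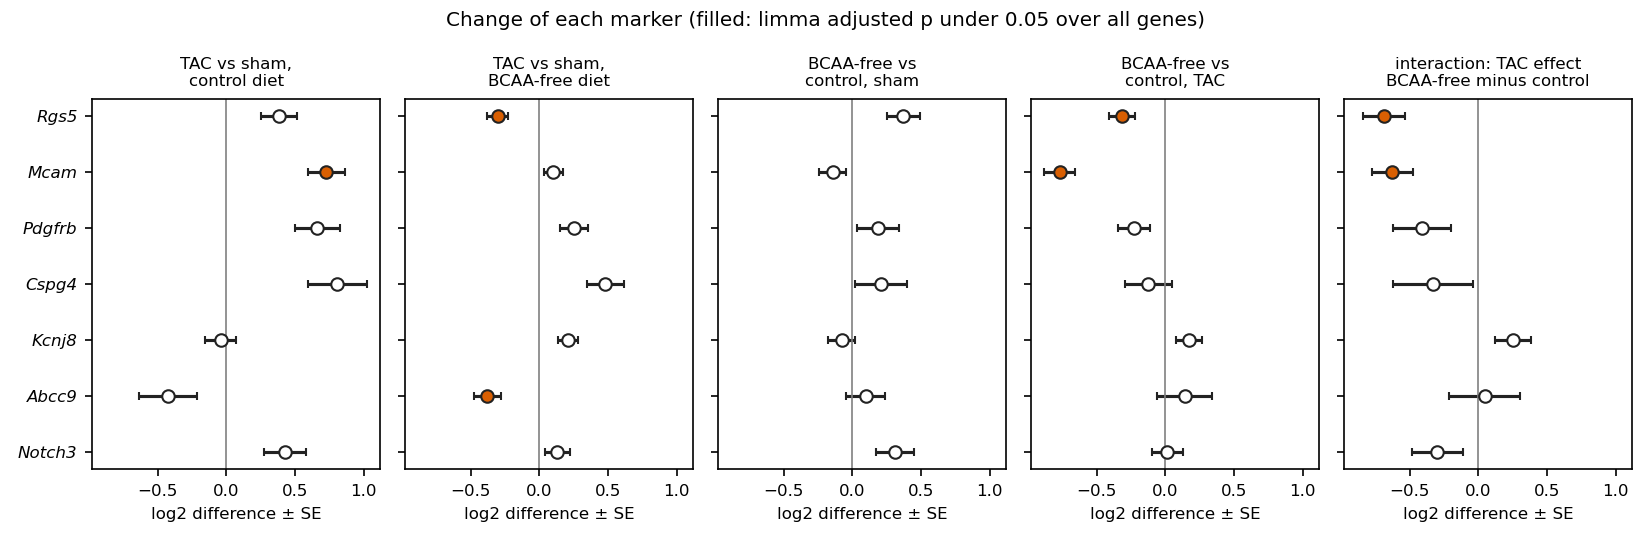
Log2 difference ± SE (x axis) of each pericyte marker (y axis) in the 4 comparisons and in the interaction of diet and surgery, with filled points for an adjusted p under 0.05 over all genes. For TAC, Rgs5 is at -0.30 on the BCAA-free diet and at 0.38 on the control diet, and Mcam is at 0.10 and 0.73.

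The diets were compared within sham hearts to ask what restriction did without overload. None of the 7 markers was called by limma (0 of 7), where 0.624% of all 15217 genes were called. At an unadjusted p under 0.05 there were 2, Rgs5 and Notch3, and edgeR and DESeq2 on the recovered reads also called 0. Rgs5 had 18608, 17710 and 16940 normalized counts in BCAA-free sham, against 15412, 14077 and 11885 in control diet sham. It was the marker whose BCAA-free libraries all lay higher, where 11.7% of all genes did so (0.37 ± 0.12, adjusted p = 0.158). Notch3 had 2202, 2340 and 2080 in BCAA-free sham, against 1894, 2086 and 1420 in control diet sham, and its groups met at the edge (0.31 ± 0.14, adjusted p = 0.284). Mcam had 1430, 1368 and 1393 in BCAA-free sham, against 1576, 1416 and 1639 in control diet sham (-0.14 ± 0.10, adjusted p = 0.507). For Pdgfrb the difference was 0.18 ± 0.15, for Cspg4 0.21 ± 0.19, for Abcc9 0.10 ± 0.14 and for Kcnj8 -0.08 ± 0.10, with adjusted p from 0.586 to 0.770. In these 4 markers the groups overlapped. Control diet sham replicate 3 was the lowest library for Rgs5, Pdgfrb, Cspg4, Abcc9 and Notch3. Without it the difference was 0.15 for Notch3, 0.0032 for Pdgfrb, -0.024 for Cspg4 and -0.071 for Abcc9.

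Within TAC hearts the diets separated far more genes, so a call says less there. Rgs5 and Mcam were lower on the BCAA-free diet (2 of 7 called), where 17.7% of all 15872 genes were lower and 34.2% were called. The same 2 markers were those without overlap between the groups, both lower, where 25.6% of all genes were so. With 7 genes, 2 calls are a share near that background. The 7 had a median difference of -0.12, against 0.00026 over all genes.

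Mcam had 1944, 1853 and 1879 normalized counts in BCAA-free TAC, against 2944, 3881 and 2932 in control diet TAC. The highest BCAA-free library was far below the lowest control diet library. The difference was -0.77 ± 0.11 (adjusted p = 0.002), or 0.587-fold, and it passed the threshold under every alternative run, from -0.64 to -0.84 with single libraries left out. Rgs5 had 19316, 18651 and 16645 in BCAA-free TAC, against 21370, 22719 and 23848 in control diet TAC. All BCAA-free libraries were lower, by a smaller step than for Mcam (-0.32 ± 0.09, adjusted p = 0.0296). With the GC and length trends removed it was -0.15 ± 0.08 (adjusted p = 0.198), and the call was also lost without BCAA-free TAC replicate 2 (adjusted p = 0.0660), BCAA-free TAC replicate 3 (adjusted p = 0.121) or control diet TAC replicate 3 (adjusted p = 0.115).

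The other 5 markers overlapped between the diets after TAC. Pdgfrb had 2995, 3663 and 3231 in BCAA-free TAC, against 3602, 4483 and 3520 in control diet TAC (-0.23 ± 0.11, adjusted p = 0.149). Notch3 averaged 3063 ± 367 in BCAA-free TAC and 3037 ± 362 in control diet TAC (SD, n = 3 each), a difference of 0.01 ± 0.11. Cspg4 was at -0.12 ± 0.17, Abcc9 at 0.14 ± 0.20 and Kcnj8 at 0.17 ± 0.09, with adjusted p from 0.178 to 0.614. For Abcc9 the low value of control diet TAC replicate 2, 6455 against 10568 and 10359 in its partners, set the sign. Without that library the difference was -0.09. Fibroblast markers moved here too, with 10 of 14 lower and 1 higher, and sums of 2232 to 2649 CPM in BCAA-free TAC and 3381 to 6022 in control diet TAC. In this comparison 17.7% of all genes were lower and 34.2% were called. Of 17 endothelial markers 8 were lower and 2 higher, with sums of 2456 to 2701 and 2495 to 2706. Of 12 cardiomyocyte markers 7 were higher and 1 lower, with sums of 103386 to 108395 and 70890 to 86999, and of 15 smooth muscle contractile genes 4 were higher and 1 lower. Their part in the Mcam and Rgs5 differences was not tested.

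The difference between the TAC effects on the 2 diets was tested as the interaction of diet and surgery over all 12 libraries. Rgs5 and Mcam were called (2 of 7), where 3.73% of all 15195 genes were called lower and 8.65% in either direction. For Rgs5 the TAC effect on the BCAA-free diet minus that on the control diet was -0.69 ± 0.15 (adjusted p = 0.0199), with TAC libraries all lower than sham on the BCAA-free diet and all higher on the control diet. For Mcam it was -0.63 ± 0.15 (adjusted p = 0.0256), with TAC libraries higher than sham on both diets but by a far larger step on the control diet. The Mcam step on the BCAA-free diet was not called (0.10 ± 0.07, adjusted p = 0.402). With the GC and length trends removed both interactions were still called, Rgs5 at -0.47 ± 0.12 (adjusted p = 0.0465) and Mcam at -0.71 ± 0.14 (adjusted p = 0.0230). The calls were lost without BCAA-free sham replicate 1 (adjusted p = 0.0560 for Rgs5 and 0.0652 for Mcam), BCAA-free sham replicate 2 (0.0535 and 0.0612) or BCAA-free TAC replicate 3 (0.0603 and 0.0672). Mcam alone was lost without BCAA-free TAC replicate 1 (adjusted p = 0.0524) or 2 (adjusted p = 0.0526). The remaining markers were not called, at -0.41 ± 0.21 for Pdgfrb, -0.33 ± 0.29 for Cspg4, -0.30 ± 0.19 for Notch3, 0.25 ± 0.13 for Kcnj8 and 0.05 ± 0.26 for Abcc9. Without control diet sham replicate 3 the values were -0.23 for Pdgfrb, -0.10 for Cspg4 and -0.14 for Notch3, and without control diet TAC replicate 2 Cspg4 was at -0.14.

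**Figure D3:**
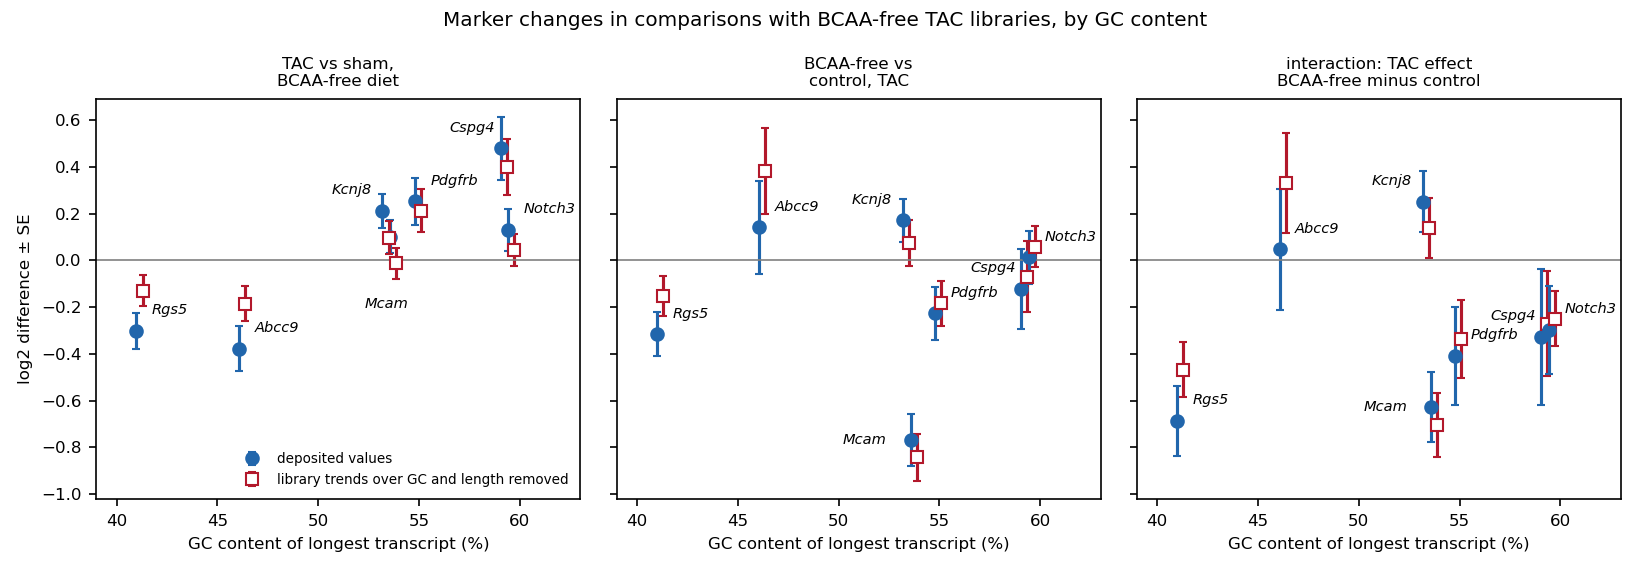
Log2 difference ± SE (y axis) of each pericyte marker against the GC content of its longest transcript in percent (x axis), with filled circles for the deposited values and open squares after each library's trends over GC content and length were removed; the symbols of a gene are set slightly apart. Rgs5, at 41.1% GC, is closer to 0 after removal in each panel, while Mcam, at 53.7%, is at -0.84 after removal and -0.77 before it between diets after TAC, and at -0.71 and -0.63 in the interaction.

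Ratios between markers within a library do not depend on how libraries are scaled, but they keep a GC trend, since each pairs transcripts of unlike GC content. The ratio of Rgs5 to Pdgfrb, in reads per kilobase, was 6.14, 6.21 and 7.77 in BCAA-free TAC, against 9.28, 9.47 and 10.7 in BCAA-free sham. The groups did not overlap, and the ratio was 0.681-fold that in sham (exact two-sided permutation p = 0.1, the smallest that 3 against 3 allows, adjusted p = 0.4 over the 8 ratio tests). On the control diet it was 6.11, 7.15 and 8.16 in TAC, against 7.74, 8.57 and 9.57 in sham, with overlap (exact permutation p = 0.2, adjusted p = 0.48). The ratio of Kcnj8 to Abcc9, in RNA of the whole heart, was 0.528, 0.581 and 0.700 in BCAA-free TAC, against 0.377, 0.395 and 0.424 in BCAA-free sham. The groups again stood apart, by 0.59 on the log2 scale (exact permutation p = 0.1, adjusted p = 0.4). With the GC and length trends removed, the TAC differences on this diet lay closer together within each pair, at -0.13 for Rgs5 and 0.21 for Pdgfrb, and at 0.10 for Kcnj8 and -0.19 for Abcc9. On the control diet the same ratio was 0.513, 0.548 and 0.718 in TAC, against 0.382, 0.394 and 0.603 in sham, with overlap through 1 high sham library (exact permutation p = 0.3, adjusted p = 0.48). Between the diets neither ratio separated the groups, after sham or after TAC (exact permutation p from 0.3 to 0.8).

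**Figure D4:**
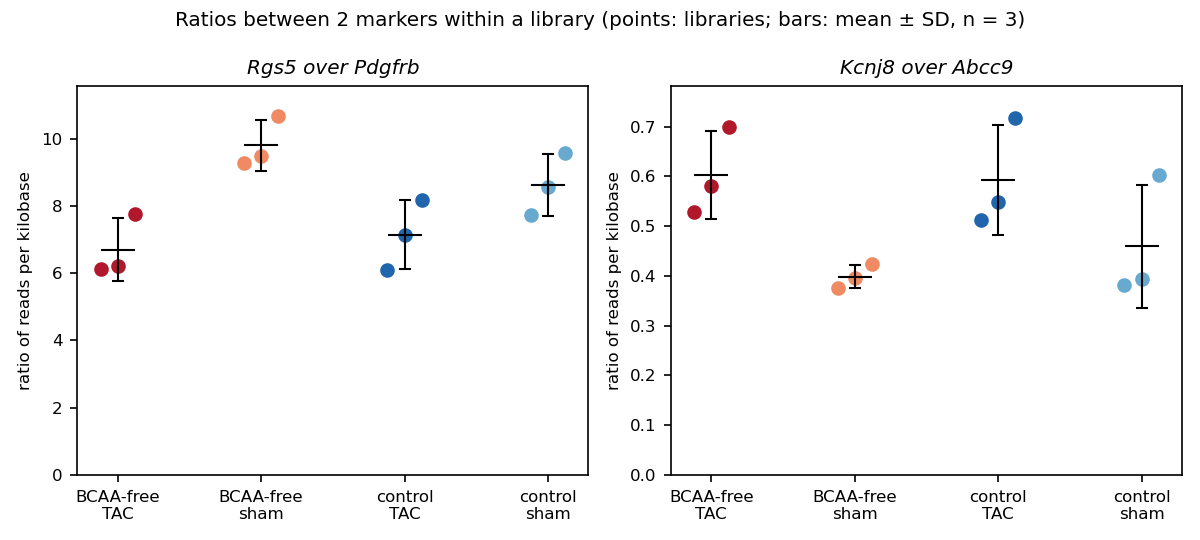
Ratio of reads per kilobase of Rgs5 over Pdgfrb (left) and of Kcnj8 over Abcc9 (right) on y axes from 0 in the 4 groups (x axis), with 1 point per library in ascending order and bars for the mean ± SD of 3. On the BCAA-free diet TAC and sham do not overlap in either ratio, and on the control diet they overlap in both.

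Across the 12 libraries the markers did not form a single pattern. Pdgfrb and Cspg4 were closest, with a Pearson r of 0.966 on log2 CPM. Cspg4 ranked first of 10457 genes for likeness to Pdgfrb, and Pdgfrb second for likeness to Cspg4, after Fam189b. Notch3 followed them at r = 0.882 with Pdgfrb and 0.871 with Cspg4. Abcc9 ran against Mcam at r = -0.676 and against Cspg4 at r = -0.529, and Kcnj8 against Rgs5 at r = -0.423. Many genes ran more strongly against each. Of 10457 genes Abcc9 ranked 8925 for likeness to Mcam and 8958 for Cspg4, and Kcnj8 ranked 8012 for Rgs5. Among the genes most like the rest were Ap3s1 and then Lum, a fibroblast proteoglycan gene, for Mcam (r = 0.984 and 0.983), Ephb4 for Notch3 (0.957), Dpyd for Abcc9 (0.954) and Snapin for Kcnj8 (0.876). These values describe 12 libraries whose group, depth and GC trend all genes share.

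Of a longer list of 24 pericyte genes, 22 were tested. On the control diet limma called Tbx2 alone, a T-box factor, which rose with TAC (0.58 ± 0.13, adjusted p = 0.0451), at a median difference of 0.32 for the list. DESeq2 called 10 of the 22 there, and 12 had an unadjusted p under 0.05. Limma called 4.04% of all genes in that comparison. On the BCAA-free diet 2 of the 22 rose with TAC, Tbx2 (0.54 ± 0.12, adjusted p = 0.0262) and Ndufa4l2 (0.44 ± 0.12). A further 2 fell, Pdzd2 (-0.44 ± 0.11) and Steap4 (-0.31 ± 0.08), and the list median was 0.08. Of all genes 6.23% were called there. After sham Pdzd2 was higher on the BCAA-free diet (1.02 ± 0.14, adjusted p = 0.0104). It was the only call of the 22, where 0.624% of all genes were called. After TAC 3 were higher on the BCAA-free diet and 4 lower, a share near the 34.2% called among all genes; among them were Art3 at 0.84 ± 0.11 and Ebf1, a transcription factor of mural cells, at -0.65 ± 0.10. Steap4 (-0.59 ± 0.14) and Ebf1 (-0.82 ± 0.21) were the 2 called in the interaction, where 8.65% of all genes were called.

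Of 18 genes that work with the PDGF receptor and NG2, limma called 2 with TAC on the control diet, where DESeq2 called 7. Both rose (Sparc 1.59 ± 0.29, Cd248 0.90 ± 0.17), where 2.95% of all genes rose and 4.04% were called. Sparc encodes a matricellular protein that binds PDGF, and Cd248 encodes endosialin of mural cells and fibroblasts. Both rose on the BCAA-free diet (0.60 ± 0.10 and 0.54 ± 0.14), where Pdgfra fell (-0.35 ± 0.09), against 6.23% of all genes called. After sham they were the 2 called lower on the BCAA-free diet (-0.74 ± 0.14 and -0.71 ± 0.14), against 0.624% of all genes called. After TAC 9 were lower on the BCAA-free diet, with Pdgfra at -0.71 ± 0.07 and Cd248 at -1.07 ± 0.19, and 1 was higher, Pdgfb, the ligand gene, at 0.74 ± 0.17. Among all genes there 17.7% were lower and 34.2% were called. Pdgfb was named after its value was seen.

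Of 27 Notch pathway genes tested, limma called Notch4 alone, an endothelial receptor gene, which rose with TAC on the control diet (0.58 ± 0.10), where DESeq2 called 6. Limma called 4.04% of all genes there. Notch4 rose with Nrarp, a Notch feedback gene, on the BCAA-free diet (0.45 ± 0.07 and 0.90 ± 0.16), against 6.23% of all genes called. After TAC 7 were lower on the BCAA-free diet, among them the receptor-cleaving proteases Adam10 (-0.72 ± 0.09) and Adam17 (-0.63 ± 0.08), and 3 were higher, again near the share called among all genes. Between diets after sham limma called 0 of the 27 (6 at an unadjusted p under 0.05, 2 by DESeq2 and 0 by edgeR). Of all genes 0.624% were called there. Of 24 partners of the channel and of vascular tone, Prkg1 rose with TAC on the control diet (0.80 ± 0.13) and 2 fell. Among the 2 was the adrenoceptor gene Adra1b (-0.86 ± 0.18). In that comparison 4.04% of all genes were called. On the BCAA-free diet Gnas rose (0.63 ± 0.08) and 3 fell, against 6.23% called among all genes. Among the 3 were Pde3a (-0.59 ± 0.08) and Kcnj2 (-0.65 ± 0.10). After TAC 8 were higher on the BCAA-free diet and 5 lower, against 34.2% called among all genes, among them the inward rectifier gene Kcnj12 at 0.93 ± 0.10 and the endothelin receptor gene Ednrb at -0.98 ± 0.12. Of 7 angiopoietin and Tie genes limma called 0 with TAC when the control diet was fed (4 at an unadjusted p under 0.05, 1 by DESeq2 and 0 by edgeR). There 4.04% of all genes were called. On the BCAA-free diet Angptl2 rose (0.27 ± 0.07) and Tek, the angiopoietin receptor gene, fell (-0.28 ± 0.08), against 6.23% called among all genes. After TAC Angpt1, the angiopoietin that mural cells supply to endothelium, was higher on the BCAA-free diet (0.97 ± 0.17). Of the 7, 2 were lower, where 34.2% of all genes were called.

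The basement membrane shared by pericytes and endothelium moved with TAC chiefly on the control diet. With TAC on the control diet 9 of 18 genes rose and 0 fell, where 2.95% of all genes rose and 4.04% were called. Among the 9 were Col18a1 (1.62 ± 0.20) and Nid1 (0.93 ± 0.14), and the list median was 0.49. On the BCAA-free diet 0 rose with TAC and Itga1, a collagen-binding integrin gene, fell (-0.55 ± 0.11), at a median of 0.02. Of all genes 6.23% were called there. After TAC 13 were lower on the BCAA-free diet, among them the laminin-binding integrin gene Itga6 (-1.15 ± 0.08) and Itga1 (-1.38 ± 0.11), and 1 was higher. Of all genes 17.7% were lower in that comparison and 34.2% were called. The interaction called 9 of the 18, all lower, where 3.73% of all genes were called lower and 8.65% in either direction. Among the 9 were Col4a1 (-1.26 ± 0.22) and Nid1 (-0.90 ± 0.16). Contractile genes of smooth muscle, which share vessels with pericytes, had a median of 0.51 with TAC on the control diet, with Casq2 counted among the 15. After sham 3 of 15 were higher on the BCAA-free diet, where 0.624% of all genes were called, among them Lmod1 (1.12 ± 0.19) and Mylk (0.74 ± 0.12).

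**Figure D5:**
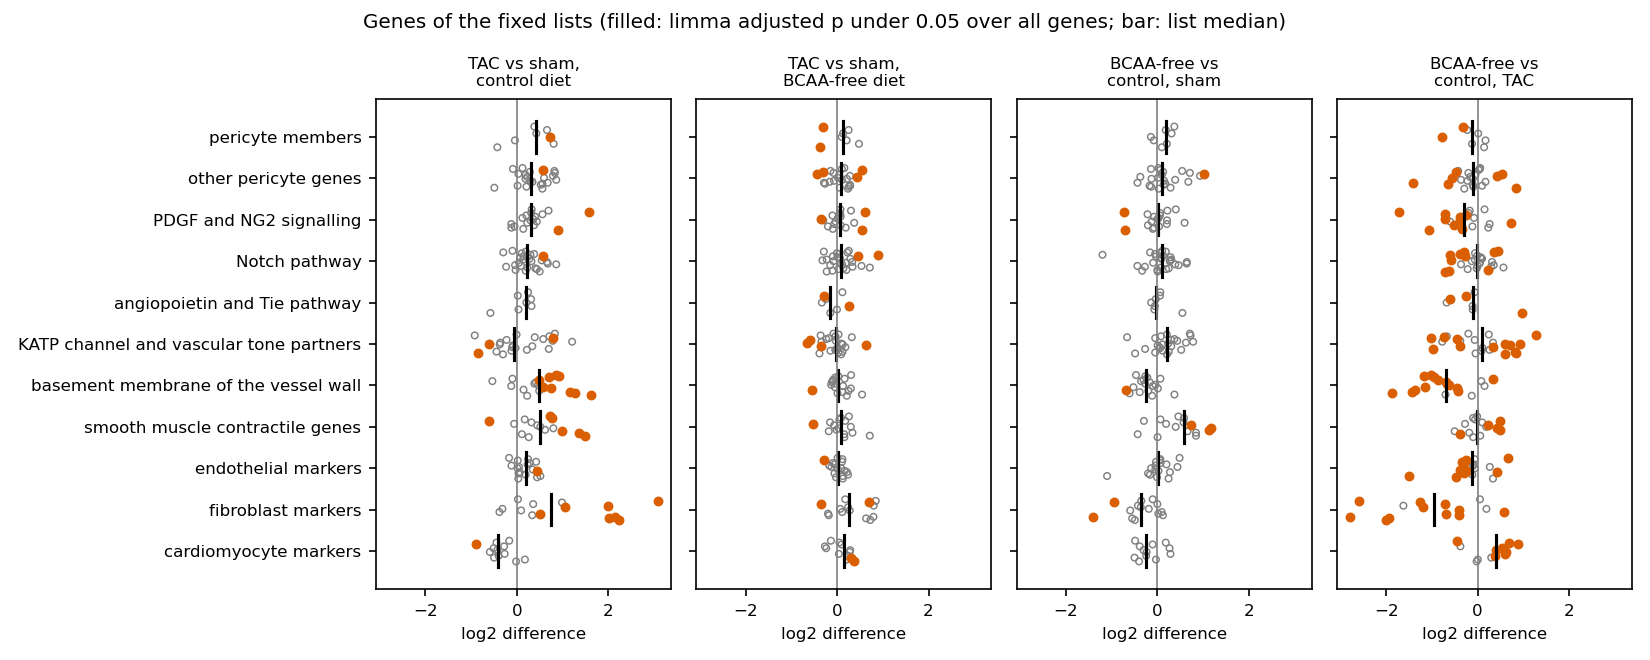
Log2 difference (x axis) of each tested gene in 11 gene lists (y axis) for the 4 comparisons, with filled points for an adjusted p under 0.05 over all genes and a bar at each list's median. The 7 pericyte markers centre on 0.43 for TAC on the control diet, 0.13 for BCAA-free TAC against sham and -0.12 between diets after TAC, and basement membrane genes on 0.49, 0.02 and -0.70.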

How the data were processed

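Each of the 4 deposited tables holds the 6 libraries of 1 comparison. The submitters' processing notes name DESeq2, STAR 2.5.2b, Subread 1.5.2, Trimmomatic 0.36, GRCm38 and mm10 without their roles. The deposited signal is a normalized read count, in which each library was scaled by its own factor in each table, and 100% of the values were within 0.01 of whole reads after division by the library's step. The authors' deposited log2 fold changes and p-values were used only where named. Groups were compared within a table with limma 3.58.1 (R 4.3.3, trend and robust variances) on log2 of the value plus 1, keeping genes whose mean reached 10. The interaction used the 12 libraries of both TAC tables. Levels across groups are recovered reads as CPM after TMM scaling by edgeR 4.0.16. Alternatives were other scalings, filters, a larger pseudocount (10), a replicate block, edgeR and DESeq2 1.42.0 on recovered reads, fits over 12 libraries, removal of GC and length trends, and each library left out in turn. The fit was tested on simulated data. Annotation came from GENCODE M21 on GRCm38, which matched 99.8% of IDs. Beyond the 7 markers, up to 2 called genes with the smallest p were named per list and comparison, and up to 3 genes most like each marker. The markers, gene lists and tests were chosen with earlier results of these data known.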

Additional observations from a re-analysis of the deposited data

Results flagged for a closer look

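For 2 markers the TAC effect differed between the diets by the interaction test of limma over all genes. The Rgs5 effect on the BCAA-free diet minus that on the control diet was -0.69 on the log2 scale, and its TAC libraries lay below sham on the BCAA-free diet and above sham on the control diet (3 of 3 against 3 on each). The Mcam effect on the BCAA-free diet minus that on the control diet was -0.63, with TAC above sham on both diets. Its step on the BCAA-free diet was not called (0.10 ± 0.07, adjusted p = 0.402 by limma). It was -0.01 with the GC and length trends removed.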

How the results depend on the processing

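Of the single marker values under the alternatives run, 554 kept their direction and side of the threshold, 20 became called, 31 lost a call and 18 changed sign. For TAC on the control diet 622 genes and 1 marker were called. Library totals alone gave 1415 genes (1268 higher and 147 lower, with the median of all genes at 0.15) and 4 markers, DESeq2 2203 and 4, limma over 12 libraries 3031 and 5, and edgeR over 12 libraries 3046 and 5. Removal of the GC and length trends gave 3 markers, and single libraries left out gave 0 to 1091 genes and 0 to 1 markers. For TAC on the BCAA-free diet, with 977 genes and 2 markers, limma over 12 libraries gave 54 and 0, edgeR over 12 libraries 62 and 0, removal of the trends 85 and 0, and single libraries left out 48 to 1184 genes and 0 to 3 markers. Between diets after sham, with 95 genes, a mean value of at least 100 gave 52, DESeq2 533, limma over 12 libraries 348, edgeR over 12 libraries 322, removal of the trends 356 and single libraries left out 6 to 475. After TAC, with 5435 genes and 2 markers, removal of the trends gave 1 marker, and single libraries left out gave 3369 to 5269 genes and 1 to 2 markers. Library totals alone split the calls there into 1461 higher and 3798 lower, against 2618 and 2817, with a median of -0.13. For the interaction, with 1314 genes and 2 markers, DESeq2 gave 2157 genes, removal of the trends 484, and single libraries left out 216 to 1733 genes and 0 to 2 markers. Library totals alone split those calls into 385 and 1456, against 747 and 567, with a median of -0.20. For the interaction, limma over 12 libraries is the TMM-rescaled fit, and edgeR has only its 12-library form. The cause of these shifts was not tested.

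Signs changed only for markers that were not called. With library totals alone Kcnj8 was at 0.11 for TAC on the control diet, Notch3 at -0.12 between diets after TAC and Abcc9 at -0.13 in the interaction. With the GC and length trends removed Mcam was at -0.01 (-0.012) for TAC on the BCAA-free diet. With single libraries left out Kcnj8 ran from -0.10 to 0.044 for TAC on the control diet, Cspg4 from -0.024 to 0.33 and Abcc9 from -0.071 to 0.20 between diets after sham, Cspg4 from -0.23 to 0.063, Abcc9 from -0.091 to 0.26 and Notch3 from -0.084 to 0.10 between diets after TAC, and Abcc9 from -0.18 to 0.21 in the interaction.

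With the replicate number as a block, 3 markers were called for TAC on the control diet (Mcam, Pdgfrb and Cspg4) and 143 genes between diets after sham. Libraries with the same number did not deviate together, with correlations of -0.26 to 0.15 between same-numbered libraries of the groups compared, so the numbers are not taken as pairs.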

Other observations

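Other cell types of the heart gave these counts. Of 13 macrophage markers 2 rose with TAC in mice given the control diet and 3 in those without BCAA. Of all genes 4.04% and 6.23% were called in these comparisons. After sham 1 of the 13 was lower on the BCAA-free diet, where 0.624% of all genes were called. In that comparison 9 of the 13 had an unadjusted p under 0.05 by limma and DESeq2 called 7, at a median difference of -0.67. After TAC 11 of the 13 were lower on the BCAA-free diet and 1 higher, where 17.7% of all genes were lower and 34.2% were called. The macrophage markers summed to 223 to 276 CPM in BCAA-free TAC, 196 to 207 in BCAA-free sham, 352 to 445 in control diet TAC and 261 to 358 in control diet sham. Of 10 lymphocyte markers 4 were tested, and they summed to 1.63 to 3.81 CPM. Among adipocyte markers limma called 0 of 7 with TAC in mice given the control diet, and 0 of 6 in those without BCAA, with 0 at an unadjusted p under 0.05 and 0 by DESeq2 and by edgeR in both.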
